A study of Mus musculus with 15 samples.

Results

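Mitf, Otx2, Pax6, Sox9, Sox10, Tfec, Lhx2 and Six3 are 8 transcription factor genes that establish or maintain the retinal pigment epithelium (RPE), the pigmented layer behind the photoreceptors. They were taken by symbol, as 8 of the 46078 genes counted, by a rule that uses no measured value, although earlier results of these data were known when the list was made. RNA sequencing libraries came from RPE of female mice at postnatal day 14, and extraction began 2 hours after light onset. The 4 groups were Mertk WT with 4 libraries, Mertk KO with 4, Bai1 Tg pos with 3 and Bai1 Tg neg with 4. Both Bai1 groups carried wild-type Mertk, with or without a Bai1 transgene, and all 4 groups share a strain label naming a mixture of C57BL/6J and B6;129-Mertktm1Grl/J. The labels do not say which promoter drives the transgene or from which species it comes. Whether the replicates of a group are separate animals is not stated, and p-values therefore reflect how far these libraries vary, which may be technical variation only.

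As background, Mitf is the basic helix-loop-helix factor that directs pigment cell fate, and Tfec is its close relative. Otx2 is a homeodomain factor that acts beside Mitf on pigment genes, and Sox9 acts with Otx2 on visual cycle genes. Pax6, Lhx2 and Six3 belong to the eye field network from which retina and RPE both arise, and Six3 is best known from neural retina. Sox10 is usually treated as a marker of the neural crest and its descendants, melanocytes and Schwann cells, and of oligodendrocytes.

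The genes that carry these roles were counted with very different abundance. Otx2 was the most abundant of the 8 and Sox10 the next, ahead of Sox9 and Mitf. Tfec was near the limit of detection. None of the 7 that could be tested passed the threshold between genotypes, and Sox10 was at 187.3 CPM or more in every library. Markers of the lineages in which Sox10 is usually studied were mixed, some at or near 0 counts and others at up to 56.08 CPM.

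The tissue label was checked first. Over the 15 libraries Rpe65, which encodes the visual cycle isomerase, ranged from 4175 to 6667 CPM, the count scaled to library size. Of 10 RPE function genes, 9 had a mean of at least 309 CPM, led per kb of exon by Ttr and Rgr, which encode the carrier transthyretin and a retinal photoisomerase. Best1, an RPE chloride channel, was the exception at 0 to 1.81 CPM. Total counts ran from 9591129 to 20024507 per library, and 3 counts correspond to 0.15 to 0.312 CPM. Mertk, the targeted receptor, was at 178 ± 18.9 CPM (SD, n = 4) in Mertk KO and 246 ± 13 CPM (n = 4) in Mertk WT, a log2 difference of -0.48 (adjusted p = 0.0461). That call was lost whenever any of the 8 libraries was left out (adjusted p 0.0546 to 0.228). Adgrb1, the gene for Bai1, was at 167.6, 169.9 and 166.2 CPM in Bai1 Tg pos and at 0, 0.12 and 0.14 CPM in Bai1 Tg neg libraries 1 to 3. The library labelled Bai1 Tg neg 4 held 144 CPM of Adgrb1 and goes against its label, so the results of both comparisons that hold it are given with and without it.

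Levels of the 8 factors were compared per kb of exon, as the mean over 15 libraries. Otx2 stood at 314 ± 26.1 CPM per kb (SD, n = 15), Sox10 at 97.8 ± 15, Sox9 at 50.3 ± 7.22 and Mitf at 24 ± 2.88. The ranges of these neighbours over the libraries did not overlap. Lhx2 followed at 23.9 ± 3.02 CPM per kb, Six3 at 15.5 ± 2.2, Pax6 at 1.72 ± 0.645 and Tfec at 0.0312 ± 0.0574. Mitf and Lhx2 could not be ordered, since Mitf was the higher in 9 of 15 libraries. Lhx2 was above Six3 in 15 of 15 libraries although their ranges overlapped. The order was the same on CPM not divided by length.

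**Figure D1:**
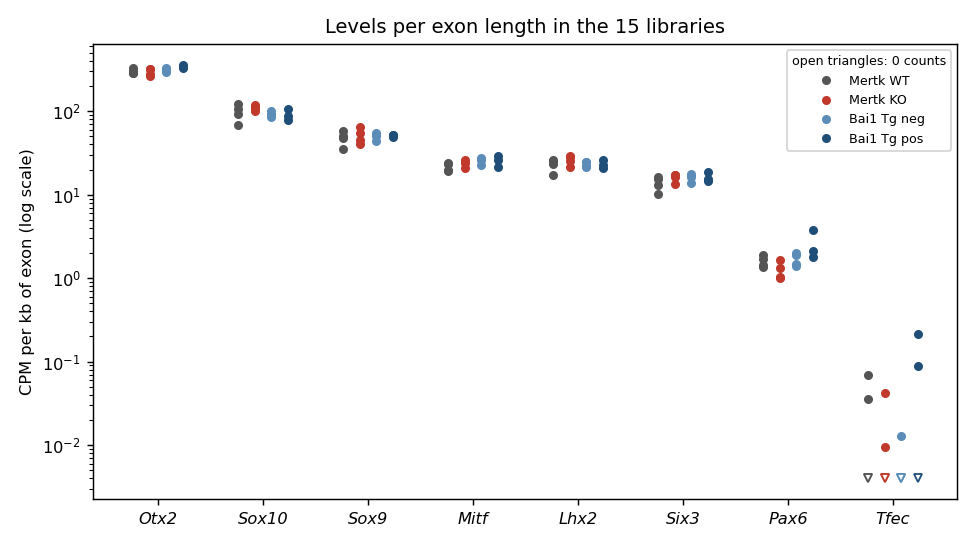
Level of each factor in CPM per kb of exon, on a log axis, with 1 point per library coloured by group and open triangles for libraries with 0 counts. Otx2 (263 to 362) and Sox10 (69 to 122) lie above the other 6 in all 15 libraries, and Tfec does not exceed 0.213.

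Otx2 lies on chromosome 14 (GRCm38, 48657679 to 48667644, minus strand). Its level was 1112, 989, 979.6 and 1040 CPM in Mertk WT, and 1094, 946, 891.9 and 1101 CPM in Mertk KO. It was 1228, 1121 and 1173 CPM in Bai1 Tg pos, and 1114, 1087, 1011 and 1088 CPM in Bai1 Tg neg. The Mertk groups overlapped, whereas the 3 Bai1 Tg pos libraries all stood above the 4 Bai1 Tg neg libraries, the nearest being 1121 against 1114 CPM. The relatives of Otx2 were far lower, with Otx1 at 18.2 ± 3.4 CPM (SD, n = 15) and Crx, the photoreceptor homeodomain factor, at 1 to 40.55 CPM.

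Mitf (chromosome 6, 97807058 to 98021349, plus strand) ranged from 119.5 to 182.2 CPM. The Mertk WT libraries held 121.5, 144.5, 148.2 and 119.5 CPM and the Mertk KO libraries 154.6, 160.5, 147.3 and 131.4 CPM. The Bai1 Tg pos libraries held 182.2, 160 and 133.8 CPM and the Bai1 Tg neg libraries 169.1, 167.3, 142.1 and 160.1 CPM. All 4 groups overlapped, with the 2 lowest values in Mertk WT. Among the other genes of its family, Tfe3 was at 44.2 ± 3.07 CPM and Tfeb at 37.8 ± 8.18 CPM (SD, n = 15), both regulators of lysosomal genes.

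Tfec (chromosome 6, 16833373 to 16898441, minus strand) had 41 counts in all libraries together and 0 counts in 8 of the 15. Bai1 Tg pos held 5, 20 and 0 counts and Bai1 Tg neg held 0, 0, 1 and 0. Mertk WT held 0, 7, 3 and 0 counts and Mertk KO held 1, 0, 0 and 4. The groups overlapped, and Tfec did not pass the filter on low counts in any comparison, so 7 of the 8 factors were tested.

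The genes that Mitf and Otx2 are known to drive were abundant. Dct, a melanin synthesis enzyme, was at 7530 ± 822 CPM (SD, n = 15), and Pmel, the melanosome fibre protein, at 2880 ± 426 CPM. Of 12 pigment genes, 11 had a mean of at least 15.3 CPM, Mreg being the exception at 0.648 CPM. Promoter sequences are shown for 3 melanin synthesis genes (Tyr, Tyrp1 and Dct), for Otx2 and for Rpe65, because these carry the letters that Mitf and Otx2 are known to bind. They are from RefSeq (GRCm38.p6), the 250 bases before the start, 5′ to 3′ on the strand of the gene. Capitals mark CATGTG, a core read by Mitf, or GGATTA, a core read by Otx2, on either strand (CACATG and TAATCC when on the other). CATGTG and CACATG can overlap by their shared CATG.
Tyr, chr7:87493513-87493762, minus strand: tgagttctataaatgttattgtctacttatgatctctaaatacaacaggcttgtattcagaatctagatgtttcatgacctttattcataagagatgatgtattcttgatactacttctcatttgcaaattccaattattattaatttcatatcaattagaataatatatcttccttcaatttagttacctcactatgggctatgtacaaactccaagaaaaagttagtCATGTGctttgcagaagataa
Tyrp1, chr4:80833963-80834212, plus strand: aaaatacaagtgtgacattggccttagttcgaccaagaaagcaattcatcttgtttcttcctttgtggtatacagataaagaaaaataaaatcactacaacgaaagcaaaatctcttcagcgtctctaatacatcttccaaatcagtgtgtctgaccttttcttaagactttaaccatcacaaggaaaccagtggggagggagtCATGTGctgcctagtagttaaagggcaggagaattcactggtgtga
Dct, chr14:118052247-118052496, minus strand: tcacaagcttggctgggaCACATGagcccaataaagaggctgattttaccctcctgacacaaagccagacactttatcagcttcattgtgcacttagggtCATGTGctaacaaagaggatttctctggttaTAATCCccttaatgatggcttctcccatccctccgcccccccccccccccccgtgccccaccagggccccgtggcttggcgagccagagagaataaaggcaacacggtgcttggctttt
Otx2, chr14:48667645-48667894, minus strand: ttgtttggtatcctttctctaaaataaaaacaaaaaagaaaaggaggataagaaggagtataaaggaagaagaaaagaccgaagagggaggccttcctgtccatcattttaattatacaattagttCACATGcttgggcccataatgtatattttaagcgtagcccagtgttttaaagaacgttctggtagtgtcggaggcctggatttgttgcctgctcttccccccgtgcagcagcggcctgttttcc
Rpe65, chr3:159598931-159599180, plus strand: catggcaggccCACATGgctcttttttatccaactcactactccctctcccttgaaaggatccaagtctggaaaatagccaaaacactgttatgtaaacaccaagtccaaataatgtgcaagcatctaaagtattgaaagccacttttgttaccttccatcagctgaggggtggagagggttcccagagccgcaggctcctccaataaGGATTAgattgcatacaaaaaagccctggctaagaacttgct

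In Tyr the CATGTG begins 21 bases before the start, in Tyrp1 46 bases and in Dct 150 bases before it. The 11 letters AGTCATGTGCT, known as the M-box, were taken from the Tyr promoter, so the match there was fixed in advance. They also stand in the Tyrp1 promoter. Searched on both strands, 7 of all 32851 RefSeq promoters hold them, Tyr and Tyrp1 included. Over the 300 bases from 250 before to 50 after each start, CATGTG was found in 7 of the 9 promoters listed for 7 of the 12 pigment genes (77.8%). It was in 4 of 12 promoters of the RPE function genes (33.3%), in 1 of 13 promoters of the 6 matched factors (7.7%), namely the Otx2 start shown, and in 14.2% of all promoters. GGATTA was found in 3 of the 9 pigment gene promoters, 3 of the 12 RPE function promoters and 2 of the 13 factor promoters, against 7.1% of all. These matches describe letters in a window and no binding was measured. Promoters of Sox9 and Sox10 were not analysed here.

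Sox9 (chromosome 11, 112782224 to 112787760, plus strand), an activator of visual cycle genes, ranged from 147.1 to 270.2 CPM. It was at 241.5, 147.1, 206 and 199.9 CPM in Mertk WT and at 169.3, 225.4, 270.2 and 188.3 CPM in Mertk KO. In Bai1 Tg pos it ranged from 202.2 to 216.8 CPM, inside the range of Bai1 Tg neg, 181.6 to 229.7 CPM. The extremes were both Mertk libraries, Mertk WT 2 being lowest and Mertk KO 3 highest.

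Sox10 (chromosome 15, 79154913 to 79164490, minus strand) was counted in every library. Its level was 332, 187.3, 249.7 and 286 CPM in Mertk WT, and 296.3, 269.6, 325.3 and 302.7 CPM in Mertk KO. It was 210.9, 238.9 and 285.2 CPM in Bai1 Tg pos, and 249.7, 237.8, 274.5 and 233.5 CPM in Bai1 Tg neg. Mertk WT held both the highest and the lowest library, and every pair of groups overlapped. Per kb, Sox10 was above Sox9, Mitf, Lhx2, Six3, Pax6 and Tfec in 15 of 15 libraries.

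The lineages in which Sox10 is usually studied were then read from their own markers. Among 10 melanocyte and neural crest markers, the neural crest factors Pax3 and Foxd3 were at 0 counts in 14 of 15 libraries each, with 1 and 2 counts in all. Erbb3, Snai2, Ngfr and Tfap2b did not exceed 1.35, 0.269, 0.926 and 2.19 CPM. Kit, the stem cell factor receptor of melanocytes, was at 38.1 ± 3.76 CPM and Sox5 at 48.3 ± 3.72 CPM (SD, n = 15). Per kb these 2 most abundant markers had means of 4.27 and 3.36 CPM over the 15 libraries, against 97.8 for Sox10. The summed level of the 10 markers was 81.52 to 98.05 CPM, less than that of Sox10 alone in each library.

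Schwann cell markers gave a mixed picture. Mbp, a myelin protein also made outside Schwann cells, was at 39.7 ± 4.85 CPM (SD, n = 15), and Egr2, the regulator of myelination, at 2 to 49.75 CPM. Cdh19, a cadherin of the Schwann lineage, was at 16.5 ± 2.81 CPM. Of the 11 Schwann markers, 4 stayed under 1 CPM in every library, and the summed level was 62.85 to 112.9 CPM. All 6 oligodendrocyte markers stayed under 1 CPM, with the lineage factor Olig1 and Opalin at 0 counts in 15 libraries. The part of other cells in the Sox10 level was not tested.

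**Figure D2:**
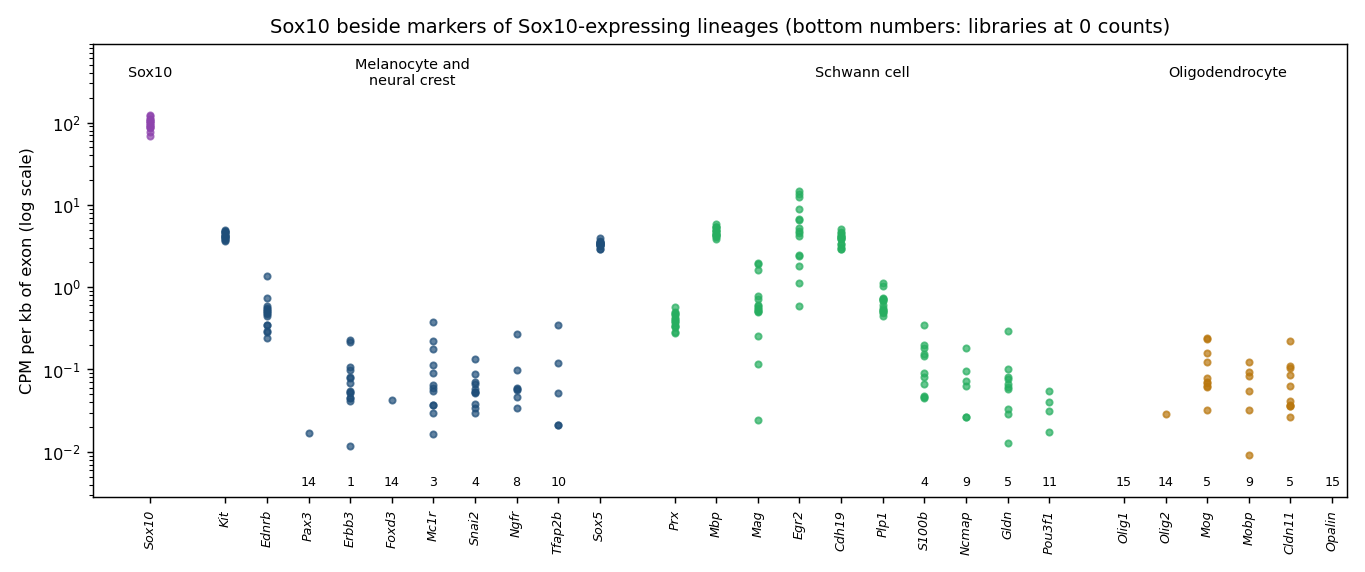
Sox10 and markers of melanocytes and neural crest, Schwann cells and oligodendrocytes, in CPM per kb of exon on a log axis, with 1 point per library and the number of libraries at 0 counts along the bottom. Sox10 (69 to 122) lies above every marker in the plot, the next being Egr2 at 0.59 to 14.6.

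Pax6 (chromosome 2, 105668900 to 105697364, plus strand), the eye field factor kept in amacrine and ganglion cells, was low. It was at 21.86, 15.97, 17.02 and 19.56 CPM in Mertk WT and at 19.39, 12.09, 11.77 and 15.62 CPM in Mertk KO. It was at 24.82, 43.58 and 21.2 CPM in Bai1 Tg pos and at 23.11, 17.16, 16.25 and 22.37 CPM in Bai1 Tg neg. All groups overlapped with their controls, and the single high value came from Bai1 Tg pos 2. That library also had the highest summed level of 15 rod markers among the 7 Bai1 libraries, 831.7 CPM against 216.2 to 492.8 CPM in the others. The summed level of 13 amacrine, horizontal and ganglion cell markers was 587.6 CPM there, against 532.1 to 627.8 CPM in the other Bai1 libraries. The glycine transporter Slc6a9 provided 570.6 CPM of it, and 517.8 to 615.6 CPM in the other Bai1 libraries. Of the 13 markers, 9 were at 0 counts in every Bai1 Tg pos library and 9 in every Bai1 Tg neg library. The sum therefore mostly follows Slc6a9. In the Mertk libraries the summed rod level was 941.3 to 3878 CPM, above that of every Bai1 library, while Pax6 was at 11.77 to 21.86 CPM. The part of RNA from photoreceptors or inner retina in the Pax6 level was not tested. In bulk RNA, fewer cells of a type and less RNA per cell cannot be told apart.

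Lhx2 (chromosome 2, 38339281 to 38369733, plus strand), a LIM homeodomain factor of the optic vesicle, ranged from 76.08 to 126.4 CPM and was lowest in Mertk WT 2. Six3 (chromosome 17, 85613608 to 85629302, plus strand) ranged from 56.08 to 102.5 CPM and was also lowest in Mertk WT 2. Six3 shares 106 exon bases with the antisense gene Six3os1 and 168 with the antisense gene Gm28528, and counting did not use strand, so reads in those bases cannot be assigned. Six3os1 was at 246 ± 24.2 CPM (SD, n = 15), or 20.7 CPM per kb, above the 15.5 CPM per kb of Six3. Gm28528 was at 1.09 ± 0.496 CPM.

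The factors that define neighbouring parts of the optic cup were mostly low. Of 14 such genes, 4 stayed under 1 CPM in every library. Rax, an eye field homeodomain factor, ranged from 0.477 to 3.23 CPM. The most abundant per kb were Tbx2, a dorsal eye factor, at 33.1 ± 6.44 CPM, and Nr2f2, an RPE nuclear receptor, at 36.5 ± 3.84 CPM (SD, n = 15). Pax2, the optic stalk factor, which was listed with the family relatives and not among these 14, was at 0 counts in 15 libraries.

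**Figure D3:**
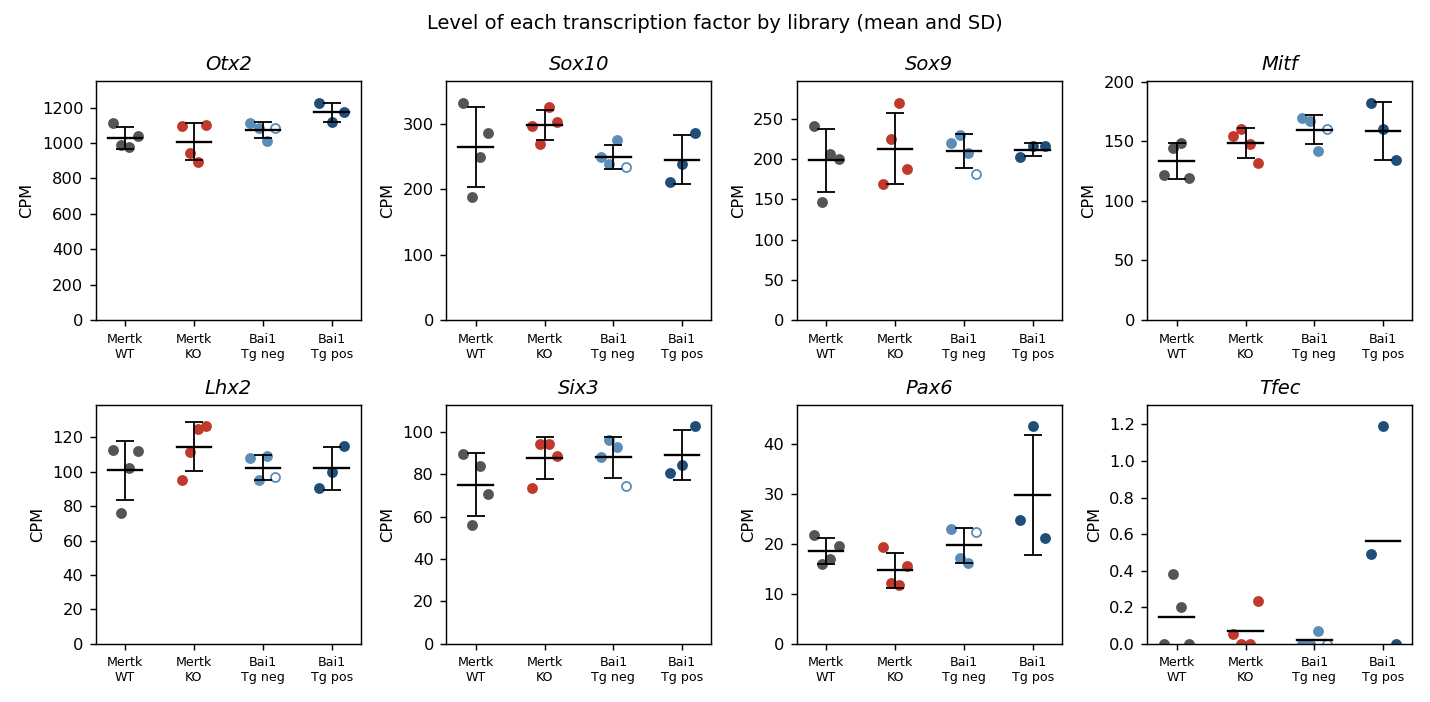
CPM of each factor by group, with 1 point per library, a line at the mean and bars of 1 SD (no SD bar for Tfec), axes starting at 0. The open point marks Bai1 Tg neg library 4, which goes against its label, and the 3 Bai1 Tg pos values of Otx2 (1121 to 1228) stand above those of Bai1 Tg neg (1011 to 1114).

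Mertk KO was compared with Mertk WT to ask which transcripts differ when the engulfment receptor is disrupted. None of the 7 tested factors passed an adjusted p of 0.05 in the edgeR quasi-likelihood test, against 30 of 13447 genes (0.223%). None reached an unadjusted p of 0.05 either, and DESeq2 and limma-voom called 0 of them. The largest difference was that of Pax6, with a log2 difference of -0.34 ± 0.17 (SE) and a 95% interval from -0.71 to 0.03 (adjusted p = 0.899). Six3 stood at 0.22 (-0.09 to 0.53), Lhx2 at 0.18 (-0.12 to 0.48) and Sox10 at 0.17 (-0.17 to 0.51). Mitf was at 0.15 (-0.05 to 0.35), Sox9 at 0.10 (-0.31 to 0.51) and Otx2 at -0.04 (-0.22 to 0.15). Adjusted p-values ran from 0.899 to 0.96, and no factor had groups that did not overlap, against 3.52% of all genes. The median over the 7 was 0.15, against 0.00 over all genes tested.

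The intervals all include 0 and leave room for modest differences, being narrowest for Otx2 and widest for Sox9. That of Pax6 lay almost wholly below 0 and reached farthest from 0, to -0.71. Without Mertk WT 2, which was lowest for Sox9, Sox10, Lhx2 and Six3, the log2 differences were -0.03, 0.03, 0.06 and 0.10, and that of Pax6 was -0.41. Without Mertk WT 1, which was highest of its group for the same 4 genes, they were 0.21, 0.31, 0.25 and 0.32, and that of Pax6 was -0.24. Pax6 and Lhx2 lie on chromosome 2 with Mertk, 23.0 and 90.33 Mb from it. Rod markers were below 0 for 14 of 15 in the same comparison, with a median log2 difference of -0.68 and 0 called, and with summed levels of 1018 to 1684 CPM in Mertk KO and 941.3 to 3878 CPM in Mertk WT. The rod level used as a covariate was the mean log2 CPM of the 15 rod markers, not their sum. With it, Mitf was at 0.23, Six3 at 0.14, Lhx2 at 0.08, Sox10 at 0.07 and Sox9 at 0.02. Otx2 was then at -0.08 and Pax6 at -0.41. None was called in these fits.

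The other genes of the network gave no calls in this comparison. Among the 12 pigment genes 0 were called higher and 0 lower. Their log2 differences were above 0 for 8 and below 0 for 4, with a median of 0.12, and Pmel was at 0.28 (adjusted p = 0.893). Of the RPE function genes 9 were tested and 0 called, with a median of -0.10. Of the optic cup factors 8 of 14 were tested and 0 called, and of the family relatives 4 of 8 were tested and 0 called.

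Bai1 Tg pos was compared with Bai1 Tg neg to ask which transcripts differ when Bai1 is added. None of the 7 tested factors passed an adjusted p of 0.05, against 2 of 13855 genes (0.0144%), and Pax6 alone had an unadjusted p under 0.05. DESeq2 and limma-voom called 0 of the 7. Pax6 was at a log2 difference of 0.61 ± 0.25 (SE), with a 95% interval from 0.05 to 1.16 (adjusted p = 0.948). Without Bai1 Tg pos 2 the difference was 0.22 (adjusted p = 0.789), and without the low-count filter it was 0.60 and passed the threshold (adjusted p = 0.00815).

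Otx2 was at a log2 difference of 0.13 ± 0.06 (SE), with an interval from -0.0036 to 0.27 (adjusted p = 0.948). It was the 1 factor of 7 whose groups did not overlap, against 6.2% of all genes tested. Of the 15 rod markers 0 were called in this comparison, while 15 of 15 had a log2 difference above 0, with a median of 1.12 (0.94 without the library labelled Bai1 Tg neg 4). Summed rod levels were 276.1 to 831.7 CPM in Bai1 Tg pos and 216.2 to 492.8 CPM in Bai1 Tg neg. With the rod level as a covariate, Otx2 was at 0.17, Pax6 at 0.39, Six3 at 0.08, Sox9 at 0.04, Lhx2 at 0.03, Sox10 at 0.01 and Mitf at -0.02. The part of rod RNA in these differences was not tested. The relative Crx, active in photoreceptors, was at 0.79 (adjusted p = 0.958), or 0.70 without that library.

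The remaining 5 factors lay close to 0. Six3 was at 0.03 (-0.19 to 0.25), Sox9 at 0.02 (-0.15 to 0.19) and Lhx2 at 0.00 (-0.20 to 0.19). Mitf was at -0.01 (-0.22 to 0.20) and Sox10 at -0.02 (-0.22 to 0.18). Without the library labelled Bai1 Tg neg 4, Otx2 was at 0.14, Pax6 at 0.68, Sox9 and Six3 at -0.04 each, Sox10 at -0.05, Lhx2 at -0.03 and Mitf at 0.00. None was called then, against 5 of 13562 genes (0.0369%). The transgene itself read a log2 difference of 10.7 in place of 2.18. Pigment genes gave 0 calls among 11 tested, with a median of -0.05, RPE function genes 0 among 10, with a median of 0.06, and optic cup factors 0 among 8. Without that library these lists gave 0 calls too, with medians of -0.02 over 11 pigment genes, 0.10 over 9 RPE function genes and -0.03 over 8 optic cup factors.

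**Figure D4:**
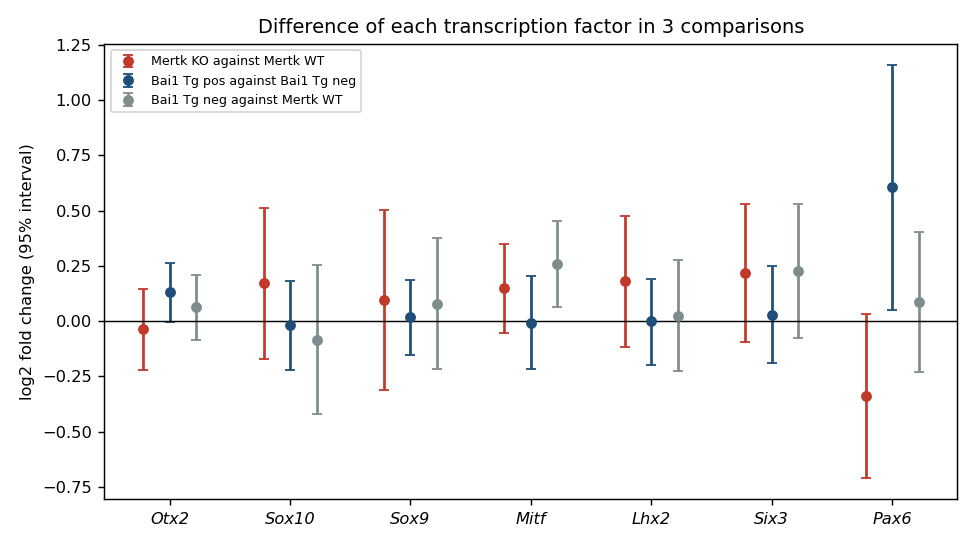
Log2 fold change of the 7 tested factors in the 3 comparisons, points with 95% intervals from the edgeR fits. The intervals of all but 2 values include 0, Pax6 in Bai1 Tg pos (0.05 to 1.16) and Mitf between the control groups (0.07 to 0.45), and no value passes the adjusted threshold.

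The 2 control groups, Bai1 Tg neg and Mertk WT, both carry wild-type Mertk and were set side by side to see how far the sets of libraries differ. All Bai1 libraries share the first tag number 12 and the Mertk libraries have 17 or 21, so set and group cannot be told apart. None of the 7 factors was called, against 58 of 13459 genes (0.431%), and Mitf alone had an unadjusted p under 0.05, while DESeq2 and limma-voom called 0. Mitf was higher in Bai1 Tg neg by a log2 difference of 0.26 ± 0.09 (SE), with an interval from 0.07 to 0.45 (adjusted p = 0.386). The difference was 0.26 without the library labelled Bai1 Tg neg 4 and 0.30 without Mertk WT 2. The Mitf groups overlapped, as did those of the other 6, against 5.74% of all genes with groups apart.

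Six3 was at 0.23 (-0.07 to 0.53), Pax6 at 0.09 (-0.23 to 0.41) and Sox9 at 0.08 (-0.22 to 0.38). Otx2 was at 0.06 (-0.08 to 0.21), Lhx2 at 0.03 (-0.23 to 0.28) and Sox10 at -0.08 (-0.42 to 0.25). Without the library labelled Bai1 Tg neg 4, Six3 was at 0.30, Sox9 at 0.14 and Otx2 at 0.06. Lhx2 was then at 0.05, Pax6 at 0.02 and Sox10 at -0.05. None of them was called, against 28 of 13710 genes (0.204%). All 15 rod markers had log2 differences below 0, with a median of -3.86 and groups apart for 15 of 15. Rom1 was the 1 rod marker called, at -0.54 (adjusted p = 0.0265). With Bai1 Tg neg 4 left out the rod median was -3.68 and Rom1 was at -0.51 and not called (adjusted p = 0.106). Crx was at -3.40 (adjusted p = 0.16), from 24.4 ± 15.6 CPM in Mertk WT to 2.35 ± 1.74 CPM in Bai1 Tg neg (SD, n = 4 each). Egr2 was at 1.80 (adjusted p = 0.228). Without that library Crx was at -3.30 and Egr2 at 1.89 (adjusted p = 0.375 each). The part of rod RNA in the differences of the factors was not tested.

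Some of the factors moved together from library to library. Over the 8 Mertk libraries the log2 CPM of Sox10 correlated with that of Lhx2 at r = 0.858 and with Six3 at 0.769. Over the 7 Bai1 libraries the values were 0.951 and 0.732. Sox10 and Mitf ran against each other, at r = -0.291 and -0.917. Otx2 and Pax6 correlated at 0.825 and 0.403. These are descriptions over 8 and 7 points that share libraries, scaling and depth, with groups pooled.

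The GC content of transcripts was laid beside this variation, as a description across genes, which are not independent replicates. The longest annotated transcript of Sox10 has 61.8% GC, above 98.4% of tested genes, that of Lhx2 58.5% and that of Six3 53.4%, against a median of 49.7%. Mitf is at 43.4% and Otx2 at 46.8%. Over 8700 genes, the deviations of Mertk WT 2 from its group mean ran against GC with a Spearman rho of -0.65, those of Mertk KO 1 with -0.60, and those of Mertk WT 1 with 0.56. The other 12 libraries lay between -0.27 and 0.37. In Mertk WT 2, Sox10 was 0.46 below its group mean on the log2 scale (a deviation of -0.46), Lhx2 deviated by -0.38 and Mitf by 0.12. In Mertk WT 1 the deviations were 0.36 for Sox10, 0.18 for Lhx2 and -0.13 for Mitf. In Mertk KO 1, Sox10 deviated by -0.01 and Lhx2 by -0.25. Sox9 and Pax6 are both at 49.3% GC, near the median. Sox9 deviated by -0.41 in Mertk WT 2, 0.3 in Mertk WT 1 and -0.31 in Mertk KO 1. The deviations of Pax6 in these libraries were -0.2, 0.23 and 0.4. The part of GC in the levels of these factors was not tested.

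**Figure D5:**
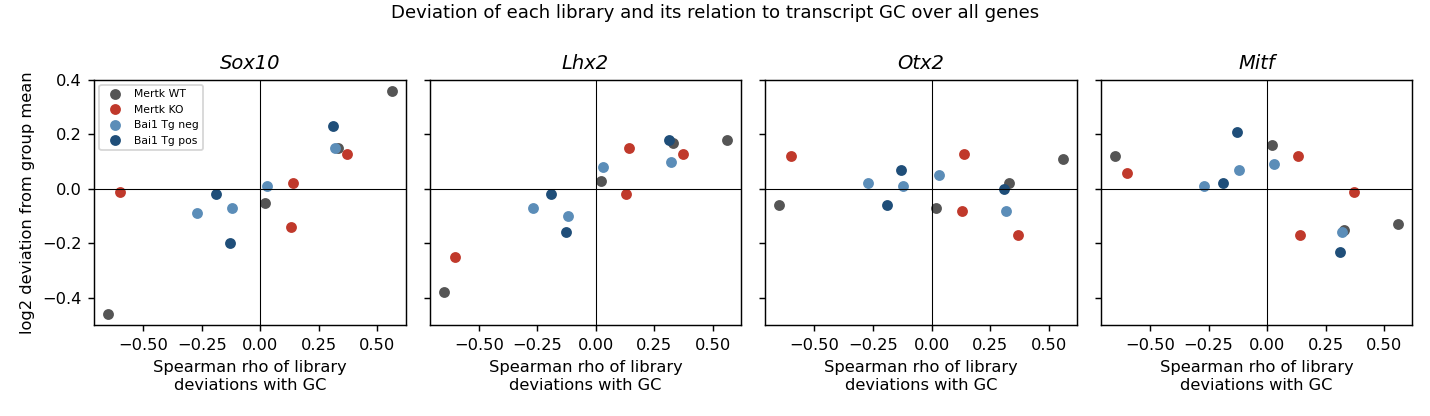
Log2 deviation of Sox10, Lhx2, Otx2 and Mitf from the group mean in each library, against the Spearman rho between that library's deviations and transcript GC over 8700 genes. Mertk WT 2 sits at the far left (rho -0.65) with Sox10 at -0.46 and Lhx2 at -0.38, and Mertk WT 1 at the far right (0.56) with Sox10 at 0.36.

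The genes most like each factor were taken by the smaller of 2 Pearson correlations of log2 CPM, over the 8 Mertk and the 7 Bai1 libraries. For Sox10 they were C77080 (r = 0.94 and 0.957), Inha, an inhibin subunit (0.94 and 0.937), and Baiap2l2 (0.935 and 0.941), among 14519 genes compared. Baiap2l2 lies 93.7 kb from Sox10 on chromosome 15 (79258195 to 79285537). The transcripts of these 3 genes have 59.7% to 64.0% GC, like that of Sox10. For Lhx2 they were Ndufaf3 (0.97 and 0.975), Fgfr1, a fibroblast growth factor receptor (0.934 and 0.953), and C77080 again. For Six3 they were Zbtb7a (0.962 and 0.95), Gm15222 and Mrps34.

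For Sox9 the nearest were Jund, an AP-1 subunit (0.884 and 0.901), Gm10382 and Rilpl1. For Otx2 they were Zc3h7a (0.897 and 0.97), Mdm4, a p53 regulator, and Ttn, and for Mitf they were Agps, an ether lipid enzyme (0.86 and 0.88), Gm15283 and Rai14. For Pax6 they were Pfkfb2, a regulator of glycolysis (0.879 and 0.968), Top3b and Zfp335os. The genes nearest to Mitf and Otx2 have 41.5% to 47.4% GC. Those nearest to Sox9 have 58.6% to 67.1% GC, unlike Sox9 itself at 49.3%. Those nearest to Pax6 have 45.6% to 55.5% GC, against 49.3% for Pax6. None of the 8 factors was among the 3 genes nearest to another.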

How the data were processed

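Poly-A RNA of RPE was sequenced in 15 libraries of 4 genotype groups, read from the sample titles. Alignment used STAR and the GRCm38 build, per the submitters' processing notes. Fragments were counted per gene by the authors with featureCounts 1.5.0, over exons, with both ends mapped and no strand option, per the file headers. Neither the version of STAR nor the release of the annotation is given in the sources used here. The deposited unit is the raw count. Symbols were matched for 45143 of 46078 genes, holding 99.91% of counts. Lengths are the exon lengths in the deposited table.

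CPM used TMM factors over the 15 libraries. Differences were tested with edgeR 4.0.16 in R 4.3.3 (filterByExpr, robust quasi-likelihood F test, two-sided, Benjamini-Hochberg over all genes tested, threshold 0.05), each fit holding the libraries of its 2 groups. Adjusted p-values come from edgeR except where another tool is named. No pair of libraries in a group looked like 1 library deposited again (chi-square per degree of freedom of at least 5.28), which does not show that they are separate animals. Depth sets precision by counting error only, since fragments carry no molecular identifiers.

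The 8 factors and the 14 lists were chosen with earlier results of these data known. Besides the factors, the text names the genes of the lists that passed the test, the 2 most abundant per kb, the first-listed genes at 0 counts, genes sharing exons with a factor, and the 3 tested genes most like each factor. Other listed genes named (among them Best1, Mreg, Crx, Egr2, Cdh19, Erbb3, Snai2, Ngfr, Tfap2b and Rax) were chosen after their values were seen, as were the promoters shown and the M-box. GC was taken from the longest GENCODE M21 transcript per gene, over genes with a mean of at least 10 CPM. Alternatives were DESeq2 1.42.0, limma-voom (limma 3.58.1) with quality weights, RLE factors, no low-count filter, all 15 libraries in 1 fit, a replicate block, the rod level or first tag number as a covariate, and each library left out in turn. List values without Bai1 Tg neg 4 were added after seeing the data. Some listed genes are not reported here.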

Additional observations from a re-analysis of the deposited data

Results flagged for a closer look

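Each factor, Mertk and Adgrb1 were searched for a library far from the others in the groups of 4, which flagged 3 of 30 sets of values. Chance flags about 1 in 20, but a set with a single library above 0 is always flagged. That rate therefore does not apply to the flags of Tfec in Bai1 Tg neg 3 and of Adgrb1 in Mertk KO 1. Tfec was at 0.071 CPM in Bai1 Tg neg 3 and at 0 in the other 3 libraries of the group, which is a single count. Adgrb1 was at 0.268 CPM in Mertk KO 1 and at 0 in the other 3, which is 5 counts. Adgrb1 was at 144 CPM in the library labelled Bai1 Tg neg 4 and at most 0.142 CPM in the other 3.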

How the results depend on the processing

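No factor was called in any comparison under any alternative except 1: without the low-count filter, 1 factor passed in Bai1 Tg pos against Bai1 Tg neg (Pax6, log2 difference 0.6). The number of genes called moved more. In Mertk KO it was 30, then 75 with DESeq2 and 69 with no low-count filter, and 16 to 31 with a library left out. In Bai1 Tg pos it was 2, then 26 with DESeq2, 85 with no filter, 0 with limma-voom or with all 15 libraries in 1 fit, 1 with the rod covariate and 0 to 54 with a library left out. Between the control groups it was 58, then 249 with DESeq2, 138 with no filter and 13 to 89 with a library left out. The causes were not tested. Whether replicate numbers pair the libraries cannot be settled from so few libraries. Same-number correlations of deviations were -0.0865, -0.0183, 0.0853 and 0.207 in the Mertk groups and at most 0.0251 in the Bai1 groups. Pairs with different numbers ran from -0.169 to 0.21 in the Mertk groups. With the replicate block, 4 genes were called in Bai1 Tg pos and 106 between the controls, no factor was called, and Mertk lost its call (adjusted p = 0.099). Factors near 0 changed sign. In Bai1 Tg pos, Lhx2 was at 0.00266 with DESeq2, 0.0155 with limma-voom, 0.00293 with RLE factors, 0.000255 in the fit of 15 and 0.0281 with the rod covariate. Sox10 was at 0.00724 with the rod covariate, Six3 at -0.0121 with limma-voom and -0.0507 with the block, and Sox9 at -0.0439 with the block. Between the controls Lhx2 was at -0.0379 with limma-voom. With a library left out, in Mertk KO Otx2 ran from -0.0799 to 0.0189, Sox9 ran from -0.0366 to 0.211; in Bai1 Tg pos Mitf ran from -0.12 to 0.104, Sox9 ran from -0.0443 to 0.0602, Sox10 ran from -0.141 to 0.0751, Lhx2 ran from -0.0977 to 0.071, Six3 ran from -0.0839 to 0.0922; between the controls Pax6 ran from -0.0046 to 0.178, Sox9 ran from -0.0424 to 0.187, Sox10 ran from -0.218 to 0.0477, Lhx2 ran from -0.0903 to 0.086. All 64 group levels of the factors kept within 1 SD under other scalings. Depth limits Tfec, at 3 counts or fewer in 11 libraries.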
